A study of Mus musculus with 30 samples.

Results

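The genes described here are 10 receptors, ligands and identity genes of the vessel wall: the VEGF receptors Kdr, Flt1 and Flt4, the ligand Vegfa, the Tie receptors Tek and Tie1, the angiopoietins Angpt1 and Angpt2, and the junction genes Cdh5 and Pecam1. They were picked by symbol, and all 10 were found among 19470 entries of the lung table and 18845 of the spleen table. The samples were lung and spleen tissue from C57BL/6 mice, 8 weeks old, in 3 genotypes, given in the labels as lincRNA-Cox2 Mutant, lincRNA-Cox2 knockout and Wild Type. Mice received lipopolysaccharide (LPS), an endotoxin of Gram-negative bacteria, at 20 mg/kg into the peritoneum for 6 h, or PBS. Each genotype and tissue had 3 LPS libraries and 2 PBS libraries, 30 in all. The labels describe neither how the alleles were made nor the animals' sex, and they do not say whether libraries of a group came from separate mice. The deposited values are group means of normalized counts, so no spread between libraries is given, and LPS and PBS are compared below by ratios with no test. Folds are plain ratios of group means, while log2 ratios are LPS over PBS with a pseudocount of 1 added to each mean.

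VEGF-A acts on endothelium mainly through Kdr (VEGFR2), the receptor that drives survival, growth and permeability. Flt1 (VEGFR1) binds VEGF-A tightly, partly as a soluble decoy, and Flt4 (VEGFR3) is the receptor of lymphatic vessels. Angpt1, made by cells around the vessel, activates Tek (Tie2) and keeps vessels quiet, whereas Angpt2, stored in endothelial cells, can oppose it during inflammation. Cdh5 (VE-cadherin) and Pecam1 (CD31) hold endothelial cells together and are the usual markers of the cell type.

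LincRNA-Cox2, the targeted RNA, was listed at 0 in all 4 lung groups of the mutant and the knockout, against 30.2 normalized counts with LPS and 34.8 with PBS in wild type lung. In spleen its level was low in wild type too, at 3.53 with LPS and 2.13 with PBS. It was 0.322 in knockout spleen with LPS and 0 in the other mutant and knockout spleen groups. The 6 endothelial markers, of which Cdh5 and Pecam1 are also described below, were above 0 in every group. Their summed level, of which Cdh5 was the largest part in lung with LPS, was 24420 to 27212 with LPS and 25220 to 26160 with PBS in lung, and in spleen 1658 to 1755 with LPS and 1545 to 1760 with PBS. The sum hides opposite directions: in lung 3 of the 6 were at least 2-fold lower with LPS in mutant, 3 in knockout and 2 in wild type, and the list's median log2 ratio was -0.21, -0.54 and -0.31 in those genotypes. Of the markers that are not members, Emcn and Egfl7 had log2 ratios of -1.64 and -2.32 in wild type lung. Cldn5 and Esam had 0.15 and 0.49 there, and both were above 0 in every lung genotype. Xist, expressed in female cells, was at 4510 in mutant, 23.2 in knockout and 14.5 in wild type lungs with LPS, and at 3300, 1910 and 3660 in mutant, knockout and wild type lungs with PBS. Y-linked Ddx3y was at 4.73 in mutant, 1130 in knockout and 1150 in wild type lungs with LPS, and at 317, 447 and 294 in those with PBS. Treatment and sex-linked expression differed together within each genotype and cannot be told apart there. In bulk tissue, fewer cells of a type and less RNA per cell cannot be told apart. Reads per group, estimated from the steps between low means, were 15.6 to 31.4 M in lung and 10.0 to 15.8 M in the 5 spleen groups where they could be resolved. Between 287 and 46181 reads lay behind a member's group mean in lung and 38 to 3226 in spleen, and the intervals given with log2 ratios are 95% exact counting intervals that cover counting error only.

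The promoter windows below show 2 receptor genes whose level was much lower with LPS in lung (Kdr, Tek) and 1 whose level moved little in mutant and wild type lungs (Flt1). Each is the 250 bases before the start site in RefSeq, build GRCm38.p6, written 5′ to 3′ on the gene's strand, at chr5:75978456-75978705 (minus) for Kdr, chr4:94739039-94739288 (plus) for Tek and chr5:147726012-147726261 (minus) for Flt1. Capitals mark GGAA, the core bound by ETS factors such as Erg and Fli1, and its reverse complement TTCC.
Kdr promoter: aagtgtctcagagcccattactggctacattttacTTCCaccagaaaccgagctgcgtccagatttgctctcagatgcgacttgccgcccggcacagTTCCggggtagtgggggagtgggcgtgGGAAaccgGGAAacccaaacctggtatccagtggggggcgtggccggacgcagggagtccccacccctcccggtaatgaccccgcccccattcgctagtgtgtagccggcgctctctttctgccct
Tek promoter: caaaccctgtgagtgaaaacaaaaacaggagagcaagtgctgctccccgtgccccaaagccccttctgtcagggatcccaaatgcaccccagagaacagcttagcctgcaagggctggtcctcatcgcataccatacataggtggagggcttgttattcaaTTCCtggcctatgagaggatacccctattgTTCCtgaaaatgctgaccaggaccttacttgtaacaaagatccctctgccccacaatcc
Flt1 promoter: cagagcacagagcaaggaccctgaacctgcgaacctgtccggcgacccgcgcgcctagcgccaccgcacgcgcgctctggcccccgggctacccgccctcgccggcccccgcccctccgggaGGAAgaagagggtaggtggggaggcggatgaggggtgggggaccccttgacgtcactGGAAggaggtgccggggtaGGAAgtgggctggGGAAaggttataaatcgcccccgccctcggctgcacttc
Searched on both strands, the Kdr window held 4 GGAA cores, the Tek window 2 and the Flt1 window 4, while the window of Tie1 held 7 and that of Flt4 2. Of 32851 promoter windows of the same length, 93.4% held at least 1 GGAA, the median was 3, and 33.4% held 4 or more. The longer ETS word CCGGAAG, present in 6.91% of all windows, was in none of the members' windows found. The NF-kB motif, found in 7.25% of windows, matched 1 stretch in Kdr, 1 in Flt1 and 1 in the upstream window of Vegfa, each read on both strands, and none in Tek or Tie1. TATAAA, found in 12.4% of windows, was present in the Flt1 window and in no other member's window found, and ACGTG, found in 16.6%, in the other window of Vegfa. That window, chr17:46025164-46025413 (minus), lies inside the span of the Vegfa gene. The Flt4 window, chr11:49609429-49609678 (plus), also lies inside the span of its gene. The Tie1 window, chr4:118489850-118490099 (minus), lies partly inside that of Tie1. GGAA can overlap the NF-kB motif. These matches describe the letters of the windows only.

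In lung, the 2 receptors that transmit most of the VEGF-A and angiopoietin signal were the members with the lowest LPS levels relative to PBS. Tek, the angiopoietin receptor (chromosome 4, 94739289 to 94874976, plus strand), had group means of 322 in mutant, 140 in knockout and 316 in wild type lungs with LPS, against 4400, 4610 and 3270 in mutant, knockout and wild type lungs with PBS. The 3 LPS groups lay far below the 3 PBS groups, 13.7-fold in the mutant, 32.9-fold in the knockout and 10.3-fold in wild type. The log2 ratios were -3.77 (-3.87 to -3.67) in mutant, -5.03 (-5.22 to -4.87) in knockout and -3.37 (-3.47 to -3.27) in wild type lung. Among entries with a mean of at least 10, only 0.378% in mutant, 0.138% in knockout and 0.605% in wild type lung had a lower ratio than Tek.

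Kdr, the main signalling receptor of VEGF-A (chromosome 5, 75932827 to 75978458, minus strand), followed. Its means were 591 in mutant, 330.2 in knockout and 717 in wild type lungs with LPS, against 3666, 4000 and 3196 with PBS in the same order of genotypes. LPS groups were lower by 6.20-fold in mutant, 12.1-fold in knockout and 4.46-fold in wild type lung, and the groups did not overlap. The log2 ratios were -2.63 (-2.71 to -2.56), -3.59 (-3.71 to -3.49) and -2.15 (-2.23 to -2.09) in mutant, knockout and wild type. Lower ratios than that of Kdr were found in 1.56% of entries in mutant, 0.743% in knockout and 3.08% in wild type lung.

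The other VEGF receptors differed less between treatments. Flt1, the decoy receptor (chromosome 5, 147561604 to 147726011, minus strand), had means of 2130 in mutant, 1570 in knockout and 2140 in wild type lungs with LPS, against 2190, 2860 and 1970 with PBS. The treatments overlapped over the genotypes: knockout was lower with LPS, at a log2 ratio of -0.86 (-0.92 to -0.81), while mutant stood at -0.04 and wild type at 0.12, and the wild type value turned to -0.24 when means were scaled to equal group sums. The counts do not separate soluble from membrane Flt1 transcripts. Flt4, the lymphatic receptor (chromosome 11, 49609263 to 49652739, plus strand), had 447, 387 and 438 in mutant, knockout and wild type lungs with LPS, against 693, 836 and 573 with PBS. Every LPS mean of Flt4 was below every PBS mean, by 1.55-fold in mutant, 2.16-fold in knockout and 1.31-fold in wild type lung.

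Tie1, the orphan partner that modulates Tek (chromosome 4, 118471191 to 118490061, minus strand), had means of 1160 in mutant, 564 in knockout and 656 in wild type lungs with LPS, against 2960, 3370 and 2760 with PBS. The groups did not overlap, and the log2 ratios were -1.35 (-1.41 to -1.29) in mutant, -2.58 (-2.67 to -2.49) in knockout and -2.07 (-2.15 to -2.00) in wild type lung. Tie1 thus differed less than Tek within each genotype. Relative to exon length, the Tek to Tie1 ratio was 0.290 in mutant, 0.259 in knockout and 0.503 in wild type lungs with LPS, against 1.55, 1.43 and 1.24 with PBS.

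The 2 angiopoietins went opposite ways. Angpt1, the Tek agonist (chromosome 15, 42424723 to 42676977, minus strand), had 396 in mutant, 366 in knockout and 387 in wild type lungs with LPS, against 969, 931 and 791 with PBS, and was 2.45-, 2.54- and 2.04-fold lower. Angpt2, its context-dependent antagonist (chromosome 8, 18690263 to 18741562, minus strand), had 1070 in mutant, 1870 in knockout and 1900 in wild type lungs with LPS, against 390, 354 and 306 with PBS, and was 2.74-, 5.28- and 6.21-fold higher. Neither gene's LPS groups overlapped its PBS groups, and the mutant had the smallest Angpt2 difference. The log2 ratios of Angpt2 were 1.45 (1.36 to 1.55) in mutant, 2.40 (2.30 to 2.50) in knockout and 2.63 (2.51 to 2.76) in wild type lung, with a higher ratio in 10.2%, 5.46% and 3.44% of entries. Per exon length, the level of Angpt2 divided by that of Angpt1 was 3.81 to 7.21 in the LPS groups and 0.536 to 0.568 in the PBS groups, so the more abundant of the pair changed with treatment in every genotype. Vegfa, the ligand of Kdr and Flt1 (chromosome 17, 46016993 to 46032369, minus strand), had 4980 in mutant, 5120 in knockout and 5580 in wild type lungs with LPS, against 6260, 7520 and 6030 with PBS. Its LPS groups were below its PBS groups by 1.26-, 1.47- and 1.08-fold, the smallest differences in mutant and wild type lung among members whose groups did not overlap, while in knockout lung that of Cdh5 was smaller.

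The 2 identity genes also parted. Cdh5 (chromosome 8, 104101625 to 104144511, plus strand) had 14700 in mutant, 12900 in knockout and 14700 in wild type lungs with LPS, against 8530, 9510 and 7600 with PBS, and was 1.72-, 1.36- and 1.93-fold higher. Pecam1 (chromosome 11, 106654217 to 106750628, minus strand) had 4020 in mutant, 3060 in knockout and 4640 in wild type lungs with LPS, against 8930, 8810 and 7860 with PBS, and was 2.22-, 2.88- and 1.69-fold lower. Neither gene overlapped between treatments. Per exon length, the Cdh5 to Pecam1 ratio was 4.69 to 6.25 in the LPS groups and 1.42 to 1.6 in the PBS groups. Pecam1 is also carried by platelets and leukocytes. In lung the summed level of 6 platelet markers was 1839 to 2602 with LPS and 408 to 573 with PBS, and that of 5 neutrophil markers 16530 to 18560 with LPS and 1725 to 2010 with PBS. The sums of 6 B cell markers, 418 to 1014 with LPS and 790 to 1105 with PBS, and of 6 T cell markers, 227 to 344 with LPS and 301 to 384 with PBS, overlapped. The sum of 6 macrophage and monocyte markers was 4741 to 5308 with LPS and 2368 to 3036 with PBS. For 6 fibroblast markers it was 10232 to 13689 with LPS and 14392.5 to 16732.5 with PBS. The sum of 6 pericyte and smooth muscle markers was 4108 to 4564 with LPS and 5093 to 5462 with PBS, and that of 6 alveolar epithelial markers 89212 to 99287 with LPS and 73430 to 103990 with PBS. Markers of tissues outside the lung also differed between groups: the sum of 6 hepatocyte markers was 746 in mutant, 3702 in knockout and 392 in wild type lungs with LPS, against 16.6, 158 and 482 with PBS. The sum of 6 skeletal muscle markers was 204, 920 and 253 in mutant, knockout and wild type lungs with LPS, against 299.6, 3339 and 202 with PBS, and that of 6 pancreatic acinar markers 35.1, 155 and 34.6 with LPS, against 34.3, 49.5 and 703 with PBS. The part of these other cells in the members' levels was not tested.

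**Figure D1:**
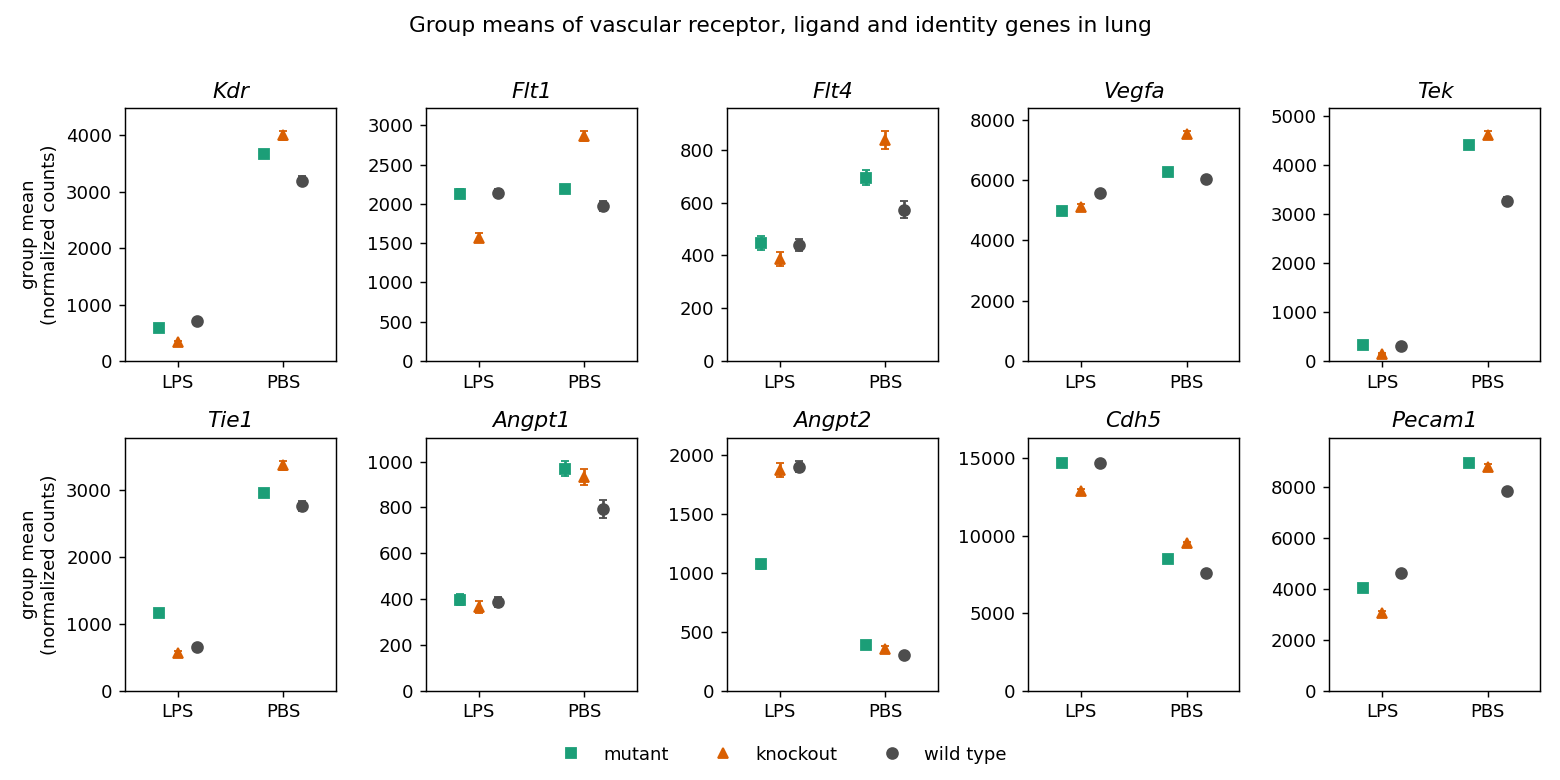
Group means of the 10 genes in lung, in normalized counts (each vertical axis starts at 0), for LPS groups on the left and PBS groups on the right. Squares are mutant, triangles knockout and circles wild type, and bars are 95% counting intervals. All points of Kdr, Tek, Tie1, Angpt1 and Pecam1 are lower with LPS, those of Angpt2 and Cdh5 are higher, and those of Flt1 overlap.

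Over the 3 genotypes in lung, 7 of 10 members had every LPS mean below every PBS mean, against 36.4% of 15523 entries, and 2 had every LPS mean above, against 35.4% of entries. At a limit of 2-fold, 5 members were lower in mutant lung (Kdr, Tek, Tie1, Angpt1 and Pecam1) against 16% of entries, 6 in knockout lung (with Flt4) against 17.7%, and 4 in wild type lung (without Pecam1) against 14.3%. Angpt2 was the 1 member at least 2-fold higher in each genotype, against 15.5% of entries in mutant, 16.9% in knockout and 13.9% in wild type lung. The median log2 ratio of the members was -0.89 in mutant, -1.23 in knockout and -0.57 in wild type lung, beside -0.03, -0.01 and -0.03 over all entries. LPS groups had larger sums of all means, so scaling to equal group sums shifts plain log2 ratios by -0.50 to -0.36 in lung and -0.46 to -0.39 in spleen, and the differences given here are relative to the authors' scaling. With the pseudocount, the largest move of a member's log2 ratio was 0.51.

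The order of the members by level changed with these differences. Per kilobase of exon in wild type lung with LPS, the level of Cdh5 was 3498, that of Vegfa 1302, of Pecam1 745 and of Angpt2 515, followed by Flt1 at 158, Tie1 at 133, Kdr at 79.4, Angpt1 at 74.4, Tek at 67.1 and Flt4 at 53.2. With PBS the levels per kilobase were 1808 for Cdh5, 1407 for Vegfa and 1262 for Pecam1, then 694 for Tek, 561 for Tie1, 354 for Kdr, 152 for Angpt1, 146 for Flt1, 82.9 for Angpt2 and 69.6 for Flt4. Tek stood below Angpt2, Flt1, Tie1, Kdr and Angpt1 with LPS and above all of them with PBS. Neighbours as close as Kdr and Angpt1 with LPS, or Angpt1 and Flt1 with PBS, cannot be ordered without a spread between libraries. Per exon length, the level of Flt1 divided by that of Kdr was 2.41 in mutant, 3.18 in knockout and 2.00 in wild type lungs with LPS, against 0.399, 0.478 and 0.412 with PBS, so Flt1 stood above Kdr in the LPS groups and below it in the PBS groups on that scale.

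Spleen libraries were normalized separately from lung libraries, so only directions and ratios are set side by side, and these had the same direction as in lung for every member but Flt1. Kdr had means of 88.5 in mutant, 55.9 in knockout and 80.4 in wild type spleens with LPS, against 234, 212 and 293 with PBS, and was 2.64-, 3.79- and 3.64-fold lower. Tek had 18, 21.9 and 14.7 in mutant, knockout and wild type spleens with LPS, against 65, 53.3 and 75 with PBS. Its log2 ratios were -1.80 (-2.32 to -1.40) in mutant, -1.25 (-1.71 to -0.89) in knockout and -2.28 (-2.87 to -1.86) in wild type spleen, wide intervals that come from 38 reads in the smallest group. The groups of both receptors were separate.

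Tie1 had 131 in mutant, 88.3 in knockout and 81.5 in wild type spleens with LPS, against 185, 184 and 199 with PBS, and the mutant again had the smallest difference, at a log2 ratio of -0.49 against -1.05 in knockout and -1.28 in wild type. Angpt2 had 124, 241 and 169 in mutant, knockout and wild type spleens with LPS, against 62.5, 61.9 and 91.2 with PBS, and was 1.98-, 3.89- and 1.85-fold higher. Cdh5 had 617 in mutant, 751 in knockout and 566 in wild type spleens with LPS, against 270, 228 and 366 with PBS. All LPS groups of Angpt2 and Cdh5 lay above all PBS groups. Pecam1 was lower, at 413 in mutant, 482 in knockout and 523 in wild type spleens with LPS, against 810, 784 and 786 with PBS.

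Flt1 had 130 in mutant, 164 in knockout and 137 in wild type spleens with LPS, against 120, 96.5 and 111 with PBS. Its log2 ratios were 0.11 (-0.10 to 0.33), 0.76 (0.57 to 0.96) and 0.30 (0.10 to 0.51) in mutant, knockout and wild type, and those of mutant and wild type turned to -0.31 and -0.08 with equal group sums. The remaining 3 members were also lower with LPS in every genotype. Flt4 had 77, 82.7 and 93.6 with LPS, against 103, 95 and 117 with PBS. Angpt1 had 44.7, 50.3 and 51 with LPS, against 54.4, 62.6 and 80.9 with PBS. Vegfa had 177, 187 and 159 with LPS, against 222, 201 and 293 with PBS, each in the order mutant, knockout and wild type. The log2 intervals of Angpt1 in mutant spleen (-0.63 to 0.07), Flt4 in knockout spleen (-0.44 to 0.03) and Vegfa in knockout spleen (-0.26 to 0.05) included 0.

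**Figure D2:**
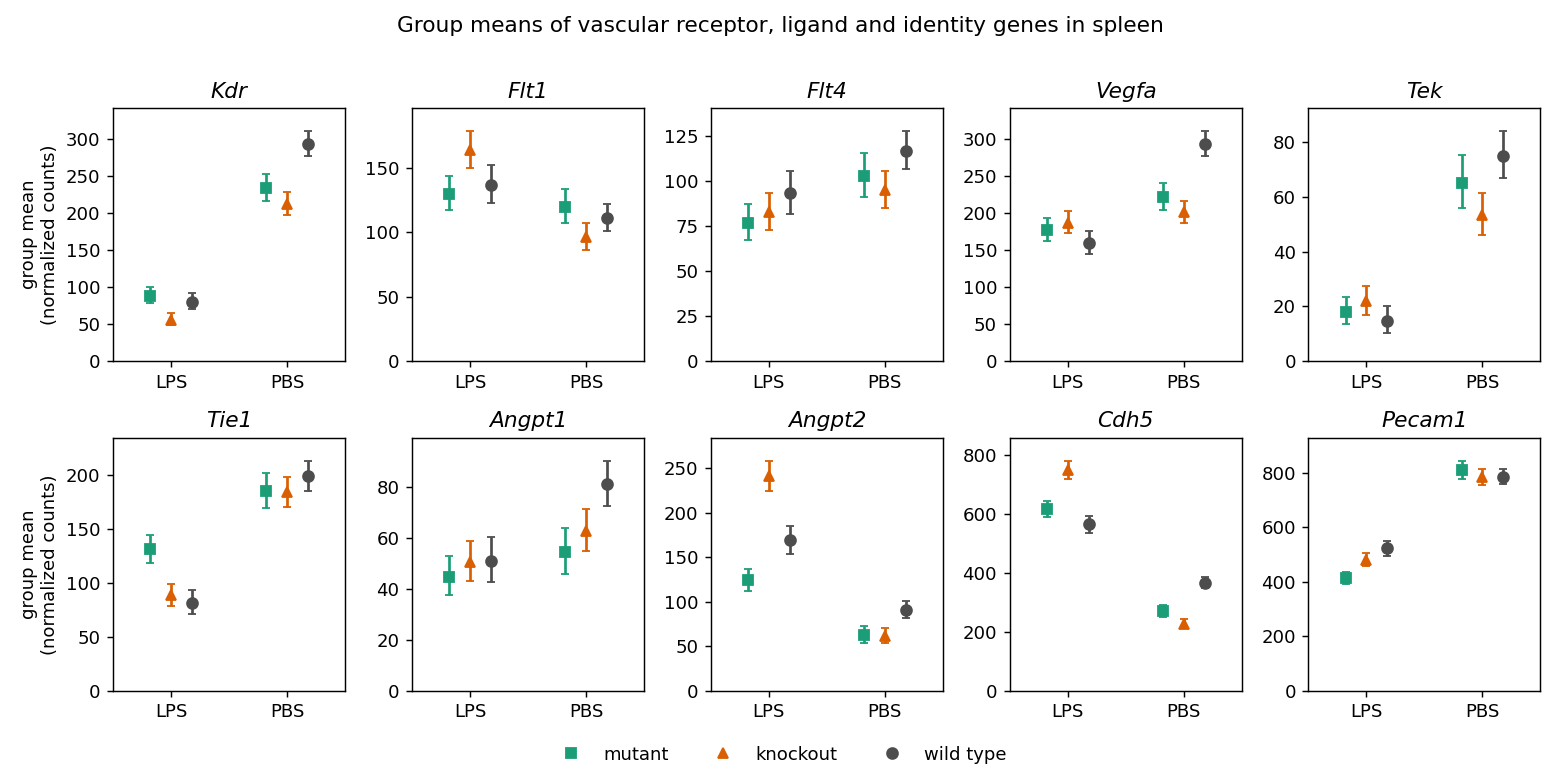
Group means of the 10 genes in spleen, in normalized counts (each vertical axis starts at 0), for LPS groups on the left and PBS groups on the right. Squares are mutant, triangles knockout and circles wild type, and bars are 95% counting intervals, which for the mutant LPS group rest on an assumed size factor of 1 per library. Kdr and Tek are lower and Angpt2 and Cdh5 higher with LPS in every genotype.

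In spleen, 7 members had every LPS mean below every PBS mean, against 31.4% of 13918 entries, and 3 (Flt1, Angpt2 and Cdh5) had every LPS mean above, against 30.3%. The 2-fold limit was passed downward by 2 members in mutant (Kdr and Tek; 16.7% of entries), by 3 in knockout (with Tie1; 18.7%) and by 3 in wild type (the same 3 genes; 14.8%). It was passed upward by 1 member in mutant (Cdh5; 15.3% of entries), by 2 in knockout (Cdh5 and Angpt2; 16.6%) and by 0 in wild type (13.5%). The shares of members passing downward stood nearer to those of all entries than in lung. The median log2 ratio of the members was -0.37 in mutant, -0.25 in knockout and -0.62 in wild type spleen, beside 0.00, -0.02 and 0.02 over all entries. Over both tissues, 7 members were lower in all 3 genotypes, 2 were higher in all 3, and Flt1 was the exception. The share of all entries with the same direction over both tissues was not computed, so how unusual these counts are is not known.

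The pair ratios moved alike in spleen. Per exon length, the level of Angpt2 divided by that of Angpt1 was 3.91 in mutant, 6.76 in knockout and 4.67 in wild type spleens with LPS, against 1.62, 1.39 and 1.59 with PBS. The Cdh5 to Pecam1 ratio was 2.21, 2.31 and 1.6 with LPS, against 0.494, 0.431 and 0.690 with PBS. The spleen, unlike the lung, already had more Angpt2 than Angpt1 per exon length with PBS. Other tissue was present in some spleen libraries: the summed level of 6 pancreatic acinar markers was 9940 to 28050 with LPS and 1032 to 23620 with PBS. That of 6 hepatocyte markers was 2622 in mutant, 3762 in knockout and 229 in wild type spleens with LPS, against 19.2, 139 and 1310 with PBS, and the part of either tissue in the spleen values was not tested.

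**Figure D3:**
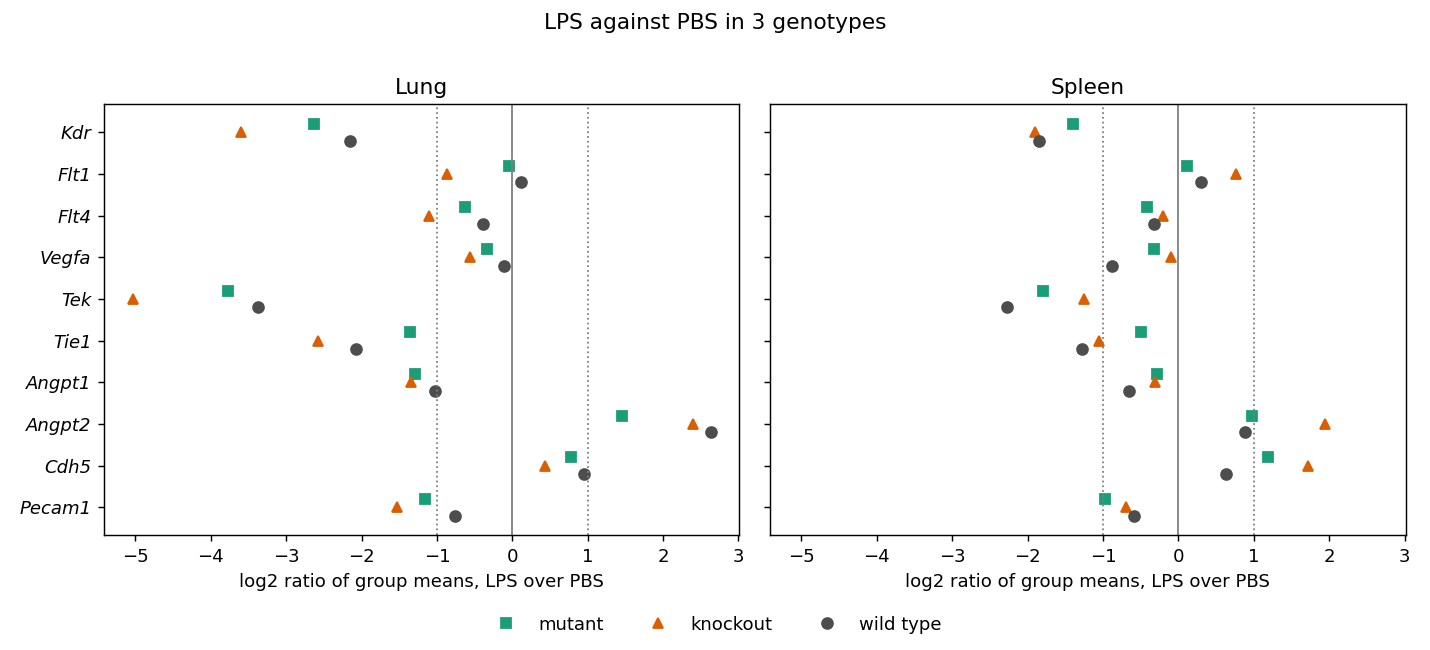
Log2 ratio of the LPS group mean over the PBS group mean (pseudocount 1) for the 10 genes in lung (left) and spleen (right). Squares are mutant, triangles knockout and circles wild type; the solid line is 0 and dotted lines mark 2-fold. Tek in lung lies between -5.03 and -3.37, and Angpt2 and Cdh5 are right of 0 in both tissues.

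Whether the targeted locus bears on these genes was asked by the authors' comparisons of the genotypes within each treatment, made with DESeq2. At an adjusted p under 0.05, 0 of 10 members were called in each of the lung LPS comparisons in the authors' deposited table, against 0.0715% of entries for mutant over wild type, 0.441% for knockout over wild type and 0.243% for knockout over mutant. With PBS in lung, 0 members were called in the authors' deposited table, against 0.00524%, 0.0421% and 0.0523% of entries in the same order of comparisons. In spleen, 0 members were called with LPS, against 0.00545%, 0.0241% and 0.177% of entries, and 0 with PBS, against 0%, 0.16% and 0% of entries in the authors' deposited table. For knockout over wild type spleen with PBS, only Cdh5 and Pecam1 had an adjusted p, and it was 0.999 for both. Unadjusted p-values were not used here. Few entries of any kind were called, so these counts are near the background.

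The nearest to a call was Kdr in lung with LPS, at 330.2 in knockout against 717 in wild type. In the authors' deposited table its log2 fold was -1.07 and its adjusted p 0.099, so at a limit of 0.1 it was the 1 member called, against 0.773% of entries. At that limit 0 members were called in the other lung comparisons of the authors' deposited table, against 0.0954% (mutant over wild type) and 0.512% (knockout over mutant) of entries with LPS and 0.00524%, 0.0474% and 0.0523% with PBS. In spleen 0 were called at that limit, against 0.00545%, 0.133% and 0.371% of entries with LPS and 0%, 0.384% and 0% with PBS, in the order mutant over wild type, knockout over wild type and knockout over mutant of the authors' deposited table. For Tek, 140 in knockout against 316 in wild type, the authors' deposited table gave a log2 fold of -0.94 (adjusted p 0.645), and for Pecam1 one of -0.58 (adjusted p 0.470). All 10 log2 folds of knockout over wild type lung with LPS were below 0, from -1.07 to -0.02 with a median of -0.20, beside a median of 0.00 over all entries in the authors' deposited table. With PBS all 10 folds of knockout over wild type were above 0, from 0.16 to 0.53, and the authors' deposited table gave each an adjusted p of 1. Mutant over wild type folds with PBS were also all above 0, from 0.05 to 0.36, in the authors' deposited table, and these comparisons share the 2 wild type PBS libraries. The medians over all entries were 0.01 for knockout and -0.01 for mutant over wild type in the authors' deposited table. In spleen with PBS the directions were the opposite: all 10 folds of knockout over wild type were below 0, at a median of -0.38, and 8 of 10 of mutant over wild type, at a median of -0.25, beside medians of -0.01 and 0.00 over all entries in the authors' deposited table.

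The mutant stood apart for a pair of Tie pathway genes, without a call. With LPS in lung, Tie1 was at 1160 in mutant against 656 in wild type, and Angpt2 at 1070 in mutant against 1900 in wild type. The log2 folds in the authors' deposited table were 0.78 for Tie1 and -0.78 for Angpt2, both at an adjusted p of 0.972. For knockout over mutant, which uses the same mutant libraries, Tie1 had a log2 fold of -0.99 at an adjusted p of 0.337 and Angpt2 of 0.76 at 0.581 in the authors' deposited table. In spleen with LPS, Tie1 had a log2 fold of 0.66 for mutant over wild type at an adjusted p of 1, and Angpt2 of -0.42 at 1, in the authors' deposited table. The authors' fold for Angpt2 in spleen was nearly the same without LPS, at -0.43 for mutant over wild type with PBS. Angpt2 was 1.98-fold higher with LPS in mutant spleen and 1.85-fold in wild type spleen. The smaller LPS over PBS ratio of Angpt2 in mutant than in wild type lung was thus not seen in spleen. The mutant LPS groups were also those with Xist at 4510 in lung and 4670 in spleen, against 14.5 and 31.3 in wild type with LPS, so genotype and sex-linked expression cannot be told apart there.

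**Figure D4:**
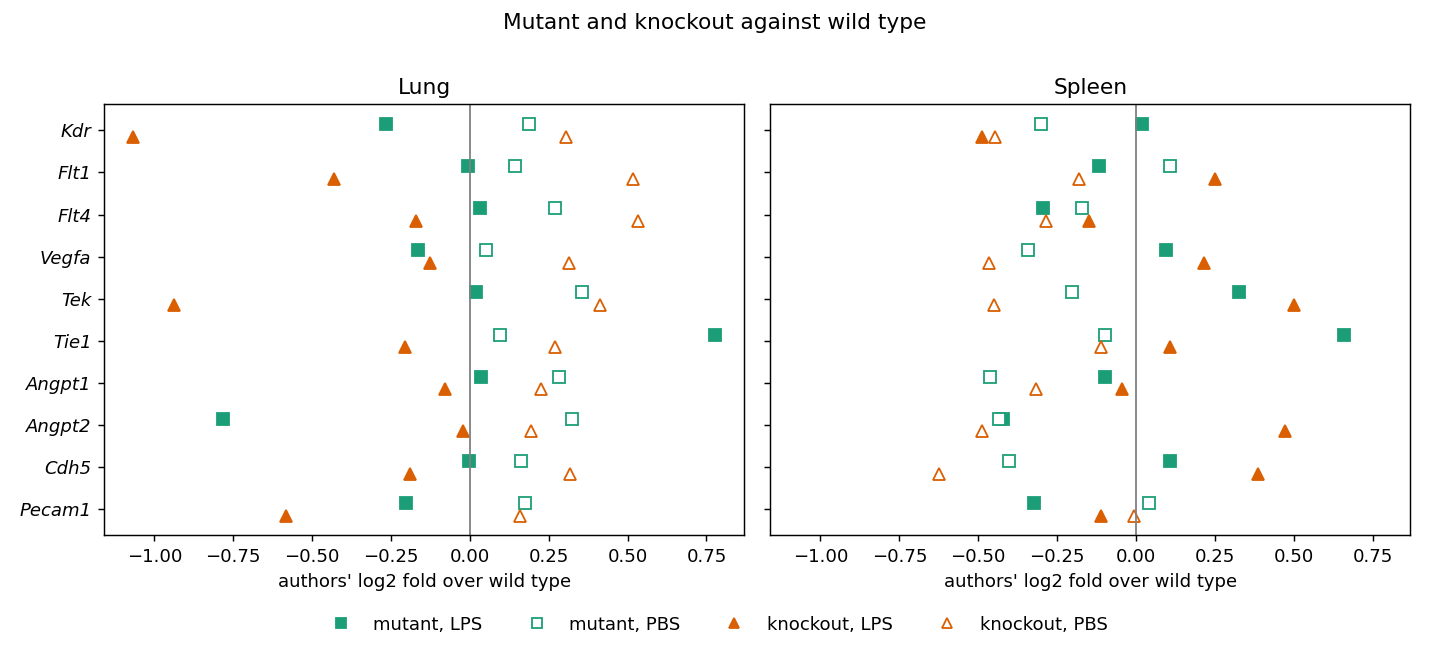
Log2 folds over wild type of the 10 genes from the authors' deposited table, in lung (left) and spleen (right). Squares are mutant and triangles knockout, filled with LPS and open with PBS, and the line is 0. None has an adjusted p under 0.05; Kdr in knockout lung with LPS, at -1.07, has the smallest, 0.099.

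The log2 ratio of LPS over PBS was lower in knockout than in wild type lung for every member, a comparison of ratios with no test. The log2 ratio in knockout minus that in wild type was -1.66 for Tek, -1.44 for Kdr, -0.98 for Flt1, -0.77 for Pecam1 and -0.72 for Flt4, and was below 0 for all 10 members with a median of -0.62. Over all 14855 entries the median was -0.03 and 52.0% were below 0. Lower differences were found in 0.343% of entries for Tek, 0.653% for Kdr and 2.36% for Flt1. The mutant minus wild type difference was below 0 for 9 of 10 members with a median of -0.25. Over all entries that median was 0.02 and 47.3% were below 0. Its extremes were Angpt2 and Tie1, whose log2 ratios were 1.45 in mutant against 2.63 in wild type, and -1.35 in mutant against -2.07 in wild type. In spleen the direction was the other: the knockout minus wild type difference was above 0 for 8 of 10 members with a median of 0.40. Mutant minus wild type was above 0 for 7 members with a median of 0.42. Over all spleen entries compared, the medians were -0.02 and -0.02 in that order, and 51.1% and 51.7% were below 0. All these differences share the wild type groups.

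The genes around the members in their pathways were followed with 8 lists of 110 distinct genes, none of which had an adjusted p under 0.05 in a genotype comparison of the authors' deposited table. Their counts at the 2-fold limit stand beside shares over all lung entries of 16% lower and 15.5% higher in mutant, 17.7% and 16.9% in knockout, and 14.3% and 13.9% in wild type lung. Of 12 VEGF family ligands and co-receptors, 6 were at least 2-fold lower in mutant, 7 in knockout and 7 in wild type lung with LPS, and 1 was higher in each. The higher one was Pgf, placental growth factor, a ligand of Flt1, at 401 in mutant, 358 in knockout and 301 in wild type lungs with LPS against 54.3, 53.8 and 54 with PBS. Sema3c and Sema3g, semaphorins that act through neuropilins and plexins, were lower: Sema3g had 169, 166 and 318 with LPS, against 1720, 1690 and 1400 with PBS. The list's median log2 ratio was -0.91 in mutant, -1.32 in knockout and -1.32 in wild type lung.

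Of 8 Tie pathway partners with a mean of at least 10, 2 were at least 2-fold lower and 2 higher in mutant, 3 and 3 in knockout, and 2 and 3 in wild type lung, with medians of 0.63, 0.62 and 0.69. Ptprb, the endothelial phosphatase (VE-PTP) that acts on Tek, was lower, at 1300 in mutant, 1130 in knockout and 1320 in wild type lungs with LPS against 9980, 10900 and 8800 with PBS. Of the angiopoietin-like genes on the list, Angptl2 was lower too, with a log2 ratio of -2.65 in wild type lung, and Angptl4, an inhibitor of lipoprotein lipase, higher at 2.62. Both are among the genes counted past 2-fold, so the list's counts rest partly on angiopoietin-like genes. Both Tek and its phosphatase were thus low in the same LPS groups.

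The 23 junction and identity genes divided as the members did. At least 2-fold lower were 9 in mutant, 11 in knockout and 10 in wild type lung, and higher were 3, 3 and 2, with medians of -0.42, -0.93 and -0.23. Calcrl and Ramp2, which together form the adrenomedullin receptor, were among the lowest: Calcrl had 730 in mutant, 565 in knockout and 1110 in wild type lungs with LPS, against 9340, 10600 and 9460 with PBS, and Ramp2 had 316, 244 and 369 with LPS, against 3750, 3490 and 3490 with PBS. Adm, the gene of their ligand adrenomedullin and also a hypoxia-induced gene, went the other way, at 1340 in mutant, 710 in knockout and 577 in wild type lungs with LPS against 37.2, 40.4 and 38.4 with PBS. Clec14a, an endothelial surface lectin, had a log2 ratio of -2.86 in wild type lung.

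Of 19 endothelial transcription factors in mutant and 20 in knockout and wild type lung, 9, 10 and 8 were at least 2-fold lower and 2, 0 and 1 higher, with medians of -0.73, -0.92 and -0.64. Sox18 and Sox17, SoxF factors of vessel identity, and Hey1, a Notch target, had the lowest ratios in wild type lung. Sox18 had 28.7 in mutant, 21.9 in knockout and 64.4 in wild type lungs with LPS, against 582, 766 and 503 with PBS. Of 13 Notch and apelin genes, 8 were lower in mutant, 8 in knockout and 7 in wild type lung, and 1 was higher in each, the ligand Dll1, with medians of -2.01, -1.98 and -1.61. Aplnr, the apelin receptor, had 178, 80.9 and 49.1 in mutant, knockout and wild type lungs with LPS, against 923, 1050 and 752 with PBS.

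Of 11 lung capillary genes, 7 were at least 2-fold lower in mutant, 8 in knockout and 8 in wild type lung, and 1, 0 and 1 higher, with medians of -1.74, -1.91 and -1.93. Hpgd, which degrades prostaglandins, had 687, 520 and 782 in mutant, knockout and wild type lungs with LPS against 6670, 6850 and 5510 with PBS, and Tmem100 and Fibin were lower as well. The lymphatic and sinusoidal list had counts near the shares over all entries: 1 of 7 genes in mutant and 1 of 8 in knockout and wild type lung was lower, 2, 1 and 1 were higher, and the medians were 0.24, 0.29 and 0.26. Lyve1, a hyaluronan receptor, had 19400, 16600 and 18800 in mutant, knockout and wild type lungs with LPS against 3020, 3220 and 2630 with PBS, whereas Flt4 was lower. Which cells gave the Lyve1 and Flt4 levels was not tested. Other genes of the list varied, and of those given next Pdpn and Prox1 were chosen after their values were seen. In the same order, log2 ratios were 1.04, 0.82 and 0.55 for Pdpn and 0.24, -0.09 and 0.89 for Mmrn1. Those of Stab2 were -1.35, -1.65 and -1.97. Prox1 had means of 8.45, 15.8 and 11.8 with LPS against 8.5, 9.65 and 14.3 with PBS. Of 12 hypoxia-induced genes, 5 were higher in mutant, 6 in knockout and 6 in wild type lung and 1, 3 and 0 lower, with medians of 0.39, 0.72 and 0.79. Ndrg1 and Slc2a1, the glucose transporter GLUT1, had log2 ratios of 3.08 and 2.25 in wild type lung, while Vegfa, itself a hypoxia target, was at -0.11. Like Vegfa, 6 genes of the list lay between the 2-fold limits there, most of them below 0.

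**Figure D5:**
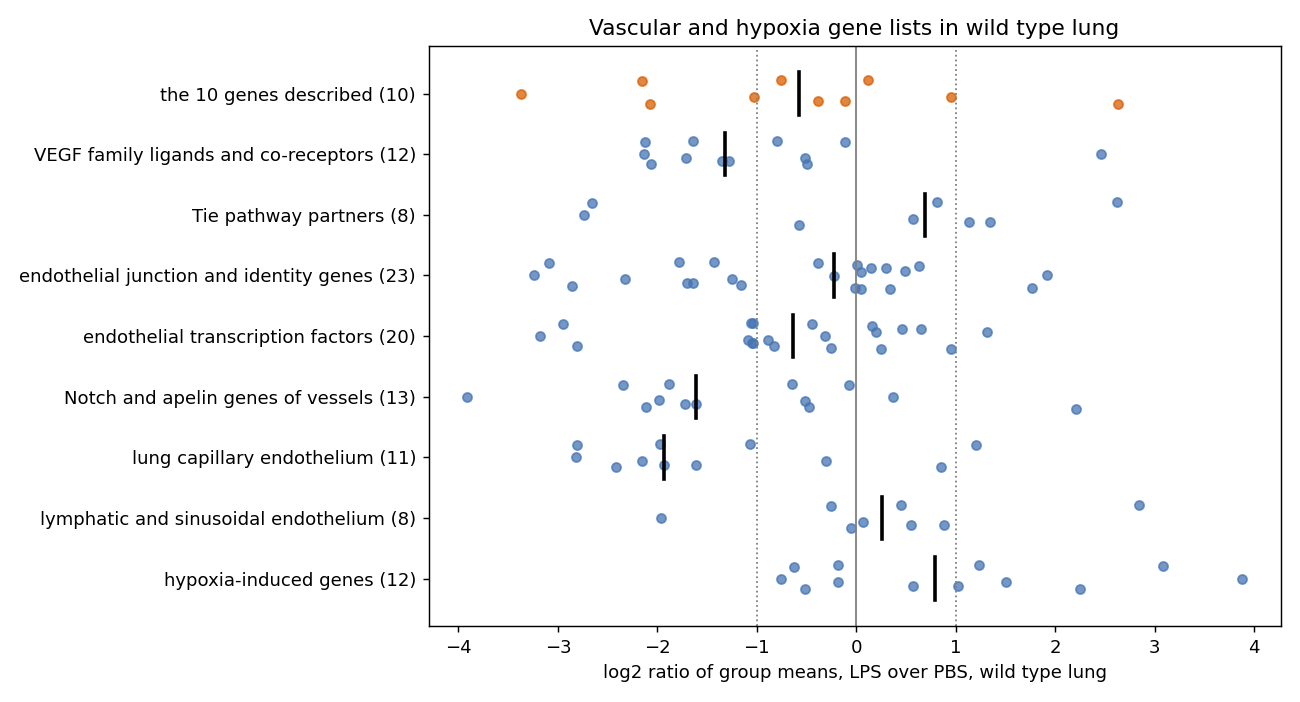
Log2 ratio of the LPS group mean over the PBS group mean in wild type lung for the 10 genes described (top) and 8 gene lists, with the number of genes in brackets. Each point is a gene, the black bar is the list's median, the solid line is 0 and dotted lines mark 2-fold. Medians lie lowest for lung capillary genes (-1.93) and highest for hypoxia-induced genes (0.79).

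In spleen the shares over all entries were 16.7% lower and 15.3% higher in mutant, 18.7% and 16.6% in knockout, and 14.8% and 13.5% in wild type. The VEGF family list had 2 genes lower and 2 higher of 11 in mutant, 0 and 4 of 12 in knockout, and 3 and 1 of 11 in wild type spleen. In the same order of genotypes, lower then higher, the counts were 3 and 2, 3 and 2, and 3 and 1 of 8 Tie pathway partners, and 3 and 3, 4 and 3, and 5 and 0 of 23 junction genes. Of 18 endothelial transcription factors they were 9 and 1, 6 and 3, and 7 and 1, with medians of -0.89, -0.61 and -0.65, and of 12 Notch and apelin genes 6 and 2, 4 and 2, and 2 and 2. The lung capillary list had 0 and 1, 1 and 2, and 6 and 1 of 10, the lymphatic and sinusoidal list 1 and 2, 1 and 2, and 3 and 1 of 9, and the hypoxia list 4 and 2, 3 and 5, and 3 and 2 of 12. Several of these counts are near the shares over all entries. Ptprb was lower in spleen too, at 129 in mutant, 118 in knockout and 123 in wild type spleens with LPS against 475, 440 and 441 with PBS, as was Sox18, at 3.54, 5.56 and 5.08 with LPS against 48.8, 48.3 and 66.8 with PBS. Stab2, a scavenger receptor of splenic sinusoids, had 256, 132 and 131 with LPS against 856, 722 and 709 with PBS.

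The genes whose pattern over the 6 lung groups lay closest to that of Kdr, among 14564 compared by the mean absolute difference of centred log2 means, were Pcdh18 (0.0744), Apln (0.0875), Cyp2j9 (0.0998), Gm15663 (0.105) and Tmem100 (0.138). Apln, the apelin ligand, had 86.6 in mutant, 46.9 in knockout and 89.6 in wild type lungs with LPS, against 472, 524 and 458 with PBS. Closest to Angpt2 were Gp1ba (0.141), Ccnb1 (0.150), Loxl4 (0.154), Amica1 (0.164) and Sema6b (0.165). Gp1ba, a platelet receptor subunit, had 52.6 in mutant, 89.2 in knockout and 85.3 in wild type lungs with LPS, against 24.1, 19.2 and 14.5 with PBS. The platelet marker sums given above for lung moved in the same direction as Angpt2. Both had every LPS group above every PBS group, as had 35.4% of lung entries. In spleen those sums were 1680, 1259 and 1172 in mutant, knockout and wild type with LPS, against 1454, 1504 and 2060 with PBS. Angpt2 was higher with LPS in all of these spleen genotypes, and a link was not tested.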

How the data were processed

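RNA from lungs and spleens was sequenced in 30 libraries, 15 per tissue. The submitters' processing notes name DESeq2, STAR 2.5.3a, SAMtools, Bowtie2 and bedtools, and mm10 as the build, but give no order. The deposited files hold, per the file headers, the authors' group means (a normalized count signal, scaled by the size factors of DESeq2), the authors' log2 fold of each of 6 genotype comparisons per tissue, and the adjusted p-value the authors gave it, a score here. Values of single libraries were not used here, so the comparisons of LPS with PBS carry no test and no SD.

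Broken lines were left out (6 of 19476 in lung, 5 of 18850 in spleen), 1026 split spleen symbols were rejoined, and no member's symbol was repeated. Reading and ratios used Python 3.11.15 with pandas 2.3.3 and scipy 1.17.1. Log2 ratios took a pseudocount of 1, and shares over all entries were taken where the LPS or the PBS mean was 10 or more. Depth was estimated from the steps between low group means, accepted where 98% of values were whole combinations of steps within 0.5%. The mutant spleen LPS group was not resolved, and its counting intervals assume a size factor of 1 per library. The step finder was tested on simulated data. Positions and exon lengths, the union over all transcripts, came from GENCODE M21, and promoters from RefSeq (GRCm38.p6, 6 members matched). Whether reads were counted by strand is not given in the sources used here.

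The members and gene lists were chosen with earlier results of these data known. Named list genes are the 3 with the largest absolute log2 ratio in wild type lung, and the 5 nearest patterns are given for Kdr and Angpt2; genes outside this rule are called chosen after their values were seen. Where several libraries of a group came from 1 animal, the authors' adjusted p-values would measure technical spread only. Alternatives were other pseudocounts, scalings, limits and filters.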

Additional observations from a re-analysis of the deposited data

How the results depend on the processing

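The counts of members past a fold limit depended on the limit. At 3-fold, 2 members were lower and 0 higher in mutant lung, 3 lower in knockout lung, 1 lower and 0 higher in mutant spleen and 1 lower in knockout spleen. At 1.5-fold, 2 were higher in mutant lung, 2 in wild type lung and 2 in mutant spleen, and 6 were lower and 2 higher in wild type spleen. Scaled to equal group sums, 0 were higher in mutant lung and 0 in mutant spleen, and with a pseudocount of 10, 1 was lower in knockout spleen. At an adjusted p up to 0.1 in the authors' deposited table, 1 member (Kdr, knockout over wild type lung with LPS) was called. A pseudocount of 0.1, centring on the median ratio and summing repeated symbols kept all 12 counts of 2-fold members within 1.5 times. Leaving out each genotype in turn, chosen after seeing the data, kept the 4 counts of non-overlapping members within 1.5 times as well. Those counts could not fall, since a member separate over all genotypes stays separate over fewer. Without wild type, Flt1 in lung was also separate, at 2130 in mutant and 1570 in knockout with LPS against 2190 and 2860 with PBS. Of the alternatives run, scaling to equal group sums turned the sign of Flt1 in wild type lung and in mutant and wild type spleen and of no other member ratio. No paired analysis was possible because the deposited tables hold group means, which carry no replicate numbers; leaving out single libraries was not run for the same reason. Depth limits the spleen values most: counting error alone reached 33.3% of a member's group mean there and 11.7% in lung.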

Other observations

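Vascular genes beside the members went opposite ways in the 2 tissues in some cases and the same way in others. Chosen after their values were seen, Dll4, the Notch ligand of sprouting endothelium, had 103 in mutant, 116 in knockout and 146 in wild type lungs with LPS against 687, 742 and 582 with PBS, but 77.1, 103 and 99.8 in mutant, knockout and wild type spleens with LPS against 20.9, 24.5 and 24.1 with PBS. Nrp1, the neuropilin that assists Kdr and likewise chosen after its values were seen, was lower in both tissues, at 1880, 1600 and 1730 in mutant, knockout and wild type lungs with LPS against 6470, 6710 and 7240 with PBS, and at 205, 182 and 181 in spleens with LPS against 429, 359 and 378 with PBS. Car4, a marker of lung capillary cells chosen in the same way, was higher with LPS in lung, at 3870, 3950 and 3270 against 2540, 2170 and 1810 with PBS, while most of its list was lower. None of these differences was tested.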
